A study of Mus musculus with 18 samples.

Results

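The transcripts of 8 genes that make and resolve meiotic crossovers were followed through late spermatogenesis of the mouse. They were Spo11, Dmc1, Mnd1, Psmc3ip, Msh4, Msh5, Mlh3 and Ccnb1ip1. The genes were taken by name, 8 of the 14664 genes tested in all, and all 8 passed the filter on low values, which asked for 3 or more libraries with an FPKM of 1 or more. FPKM relates the sequenced fragments of a transcript to its length and to all fragments mapped in the library, so that levels of different genes can be compared per length.

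RNA of polysome and RNP fractions was sequenced from 3 cell types, pachytene spermatocytes, round spermatids and then elongating spermatids. Each fraction of a cell type had 3 libraries, 18 in all. All were from adult wild type mice of the C57BL/6 strain, and no group carried a mutation or a treatment of its own. Polysomes are mRNAs loaded with several ribosomes and RNPs are particles of mRNA and protein without them, and they were parted on a sucrose gradient. Cells were sorted by sedimentation from testes of several animals pooled together, with cycloheximide in the buffers to hold ribosomes on the mRNA, and the purity of the elongating spermatids, which were collected together with elongated ones, was the lowest of the 3. The labels do not say whether the 3 libraries of a group came from separate purifications, so p values measure the spread between these libraries, which may be technical in part. In such samples fewer cells of a type and less RNA per cell cannot be told apart.

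Meiotic recombination starts when the SPO11 complex cuts both strands of the DNA at many places along the chromosomes. The broken ends are trimmed to single strands, which DMC1, a recombinase made only in meiosis, coats and leads into the homologous chromosome with help from the MND1 and HOP2 pair. The invaded intermediates are held by the MSH4 and MSH5 clamp, HEI10 chooses among them, and MLH3 acts on those that become crossovers. Breaks are made well before pachytene and crossovers are completed by its end, so round and elongating spermatids, which have finished meiosis, no longer recombine their chromosomes.

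The break-forming gene Spo11 carries the clearest splice choices among the 8 genes, and the sequences that define them are shown here, read from the mouse genome build NCBIM37 (mm9), the build of the assemblies. Spo11 lies on the plus strand at chr2:172803201-172819077. The exon 2 choice parts the longer β form, which contains exon 2 (chr2:172807480-172807593, 114 coding bases), from the shorter α form, which joins exon 1 to exon 3. As background, the β form of mouse SPO11 is known from early meiosis, when breaks are made, and the α form from pachytene onwards. In the pair of joined sequences the capitals mark the first 15 bases of exon 3, which begins at position 172809517.
α, exon 2 skipped: ccgcgtggcctctagGTTTGATGATTCTGT
β, exon 2 included: ctgggaaaacataatGTTTGATGATTCTGT

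The other choice lay at the start of exon 8 (chr2:172812629-172812738). Besides the annotated acceptor, where the exon begins, the assemblies used an acceptor 12 bases further in that none of the annotated transcripts has. The genomic stretch below runs from the end of intron 7 into exon 8 (chr2:172812617-172812646, plus strand), and the capitals are the 12 bases left out when the shifted acceptor is used. Both acceptors end in the letters CAG, and leaving out 12 bases keeps the reading frame.
exon 8 acceptors: ttaacactgcagATCTGATCACAGatgcga
annotated join of exons 7 and 8: ttcaaggaatgcagcATCTGATCACAGatg
shifted join of exons 7 and 8: ttcaaggaatgcagcatgcgaagtttctgt

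The labels of the cells were checked with marker genes. The summed FPKM of 8 elongating spermatid markers (protamines, transition proteins and others) was 5854 to 31760 in the elongating spermatid libraries and at most 4549 in the others. Single markers did not all follow the sum. Prm3 was at 0 in every elongating spermatid library and above 0 in most of the others. Prm2 was at 0 in elongating polysome replicate 1 and Prm1 in elongating polysome replicate 3. Both round spermatid libraries numbered 2 went against their label. The 8 round spermatid markers summed to 66.2 FPKM in polysomes and 52.3 in RNPs there, against 403.7 to 1234 in the other 4 round libraries, while the 8 annotated Sertoli markers summed to 1846 and 859 FPKM, against 27.6 to 72.5, with no Sertoli marker at 0 in these and Sox9 and Fshr at 0 in all of the other 4, and the 7 spermatogonium markers to 569 and 328 FPKM, against 63.7 to 202. In pachytene libraries the Sertoli markers ranged from 47.2 to 1188. Other sums did not follow the labels either. Elongating spermatid markers summed to 2587 and 707.2 FPKM in pachytene RNP replicates 1 and 3, above their 8 pachytene spermatocyte markers (556 and 169.5). The pachytene marker Hspa2 was at 0 in every pachytene library but RNP replicate 3, and above 0 in every spermatid library. Round spermatid markers were highest in elongating polysomes, at 1254 to 1856 FPKM. Across genes, the round libraries numbered 2 correlated with the other round libraries of their fraction at 0.48 to 0.62. Other replicate pairs gave 0.66 to 0.88. Read coverage per unit of FPKM, which rises with depth and read length, was 1.20 to 2.26. Pachytene RNP replicate 3 had the lowest coverage and the fewest transcripts (26773), with none spliced for Mnd1 or Msh4. Without this library, 31 genes instead of 930 were called between the fractions of pachytene spermatocytes. The median difference of all genes was then 0.75 instead of 1.01. A single annotated miRNA locus, AC154124.1, took up much of the summed FPKM. Its share was 57.3 to 82.3% in pachytene RNPs and 12.2 to 17.2% in elongating polysomes. FPKM is set against mapped fragments, and the share of those that came from this locus is not known.

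Because the deposited transcripts were assembled in each library alone, one mRNA could be assembled in several pieces. The gene value used here is the sum of FPKM over spliced pieces that share a splice junction with the annotated gene on its strand, which counts an mRNA more than once where its pieces are separate. A length-weighted value was therefore set beside it, in which each piece counts in proportion to its share of the longest annotated spliced length. For Spo11 this length is that of a retained-intron transcript of 3619 bases, while its longest coding transcript has 1709. For the other genes it is that of a coding transcript, so the length-weighted level of Spo11 is understated beside theirs. Of 298 spliced pieces of the 8 genes, 144 were in polysomes and 154 in RNPs, and a gene was assembled in more than 1 piece in 91 of the 138 library and gene combinations in which it was found at all.

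Spo11 was found in all 18 libraries and was higher in polysomes at each stage. In pachytene spermatocytes it had 81.1, 45.7 and 55.8 FPKM in polysomes, against 30.1, 21.6 and 7.07 FPKM in RNPs. In round spermatids it had 35.0, 22.5 and 24.0 FPKM in polysomes, against 15.7, 15.8 and 12.5 FPKM in RNPs. In elongating spermatids the values were 28.2, 30.1 and 27.5 FPKM in polysomes, against 9.93, 8.13 and 14.8 FPKM in RNPs. Every polysome library was thus above every RNP library of its cell type. Of the 8 genes, only Spo11 showed this at all 3 stages in both the sum and the length-weighted value. Mlh3 did so by the length-weighted value alone. The share of all genes without such overlap was not counted, here or for the other genes below. Of all genes, 86.0, 78.0 and 76.5% had a positive difference in pachytene, round and elongating cells. The separation is thus not shown to be particular to Spo11.

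The polysome minus RNP difference of Spo11 was called in pachytene spermatocytes, at 1.75 on the log2 scale (SE 0.46, limma adjusted p = 0.0403), in a comparison where 6.34% of all genes were called and the median gene was higher by 1.01. Averaged over the 3 cell types the difference of Spo11 was 1.31 (SE 0.27, limma adjusted p = 0.00273), where 30.6% of all genes were called and the median gene differed by 0.76. The pachytene call was lost (limma adjusted p up to 0.182) when any pachytene library other than RNP replicate 1 was left out, while the averaged call held without each of the 18 libraries (limma adjusted p up to 0.00755). Both were lost when libraries were scaled to a common median ratio, which gave an averaged difference of 0.41 for Spo11 (SE 0.21, limma adjusted p = 0.346) and 0.12 for the median gene.

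Between stages, Spo11 was not called in polysomes. Round over pachytene spermatocyte polysomes gave -1.12 on the log2 scale (SE 0.46), elongating over pachytene -1.02 (SE 0.46) and elongating over round 0.10 (SE 0.46), none of which was called (limma adjusted p = 0.542, 0.184 and 0.930). The 3 pachytene polysome libraries lay above all 6 polysome libraries of spermatids. The elongating spermatid libraries still held Spo11 in polysomes at 28.6 ± 1.36 FPKM (SD, n = 3), and the polysome values of round and elongating spermatids overlapped. Elongating spermatids are haploid, but their purity was the lowest of the 3 cell types. The 8 pachytene spermatocyte markers summed to 701.3 to 829.3 FPKM in the same polysome libraries, against 2276 to 3302 in pachytene polysomes. Of these markers Hspa2 went the other way, at 0 in all pachytene polysome libraries and above 0 in the elongating ones. The part of other cells in this Spo11 level was not tested.

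**Figure D1:**
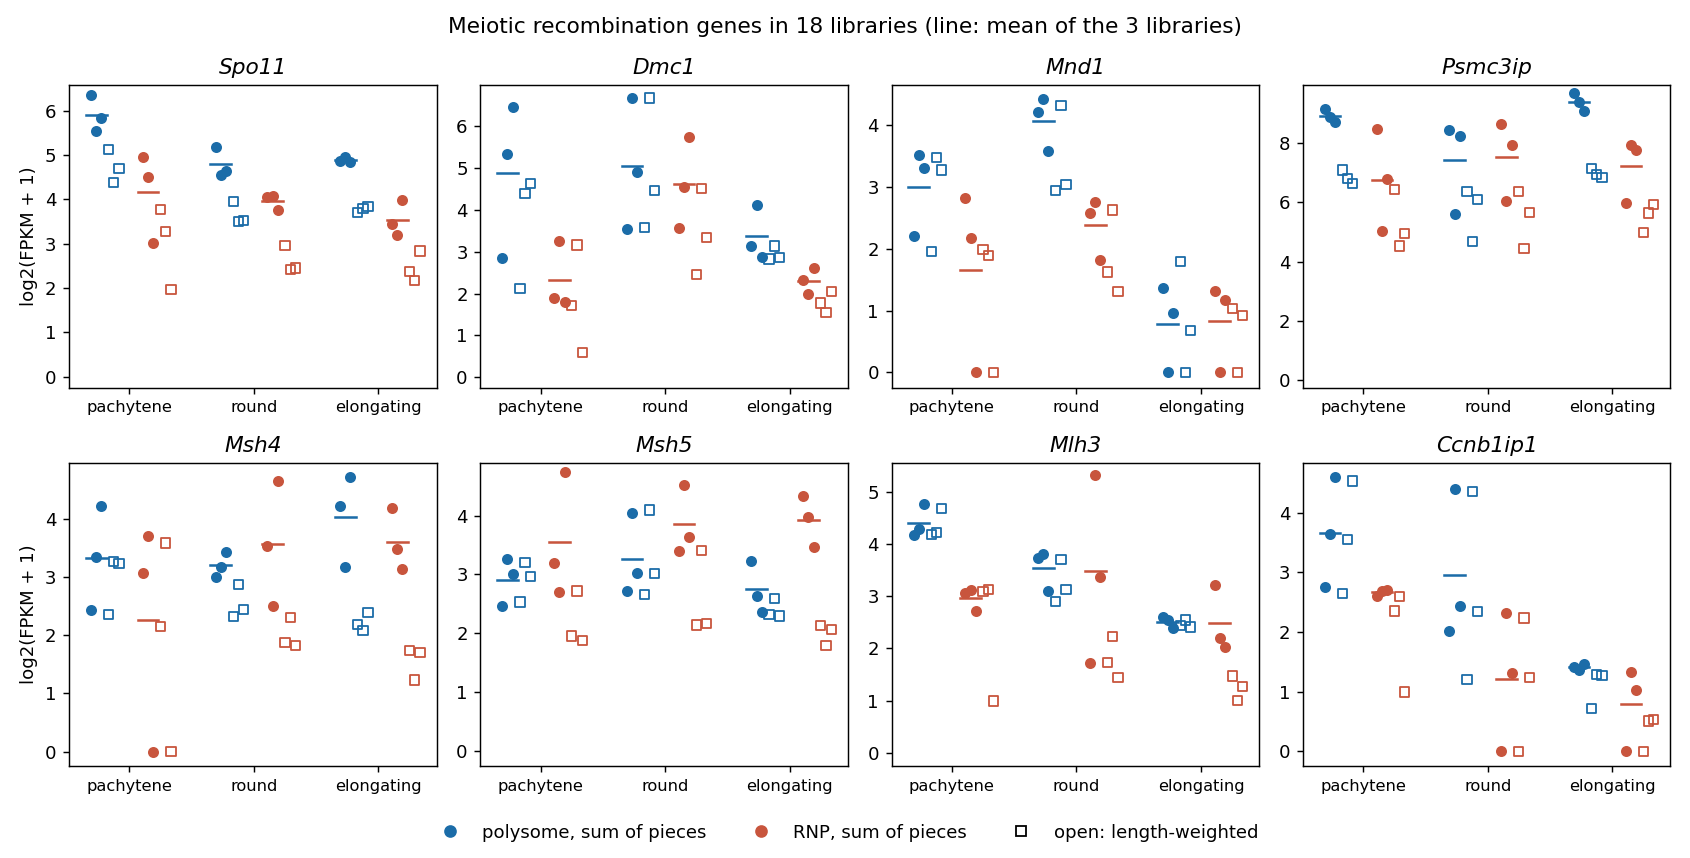
Level of each gene, as log2(FPKM + 1), in the 3 polysome libraries (blue, left) and the 3 RNP libraries (red, right) of each cell type; filled circles are the sum over assembled pieces with its mean as a line, and open squares are length-weighted values. The Spo11 polysome libraries sit above the RNP libraries in all 3 cell types, and the filled and open symbols lie far apart for Psmc3ip and, in round RNP replicate 2, for Mlh3 (39.2 and 3.70 FPKM).

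The splice forms of Spo11 are taken next. Transcripts with exon 2 were assembled in 3 of 3 pachytene polysome libraries (33.8, 9.76 and 16.4 FPKM) and in 3 of 3 round spermatid polysome libraries (13.4, 22.5 and 7.96 FPKM). None was assembled in the 3 elongating spermatid polysome libraries, where the α form held 28.2, 30.1 and 27.5 FPKM. RNPs of elongating spermatids gave exon 2 in 2 of 3 libraries, at 2.20 and 3.01 FPKM. In 4 libraries, pachytene polysome replicate 1, pachytene RNP replicate 1, round RNP replicate 3 and elongating RNP replicate 3, the assembled transcript began inside exon 2 and so did not show its join to exon 1. That join was assembled in 2 of 3 pachytene, 3 of 3 round and 0 of 3 elongating polysome libraries.

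Of the FPKM of all transcripts that contain or skip exon 2, the α form held 100% in each elongating polysome library, against 58.4, 78.7 and 70.7% in pachytene polysomes. The exact permutation test gave p = 0.1 (two-sided), the smallest that 3 against 3 libraries allow (0.3 adjusted over the 6 such tests of Spo11 forms). This separation rests on pachytene polysome replicate 1. With exon 2 counted only where it was joined to exon 1, the pachytene shares were 100, 78.7 and 70.7%, which meet those of the elongating polysomes (exact permutation p = 0.4). In round spermatid polysomes the share was 61.6, 0 and 66.9%, and the 0 was the library numbered 2, with its Sertoli and spermatogonium markers. In elongating and pachytene RNPs the shares overlapped, at 73.0 to 100% and 51.8 to 100% (exact permutation p = 0.7). The read coverage that the assemblies give, summed over Spo11 pieces, was 51.8 to 58.7 in the elongating polysome libraries and 69.9 to 161 in the pachytene polysome libraries, and its part in the result was not tested. Cufflinks leaves out forms far below the main one of a gene, so a form that was not assembled may still be present at a low level.

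The shifted acceptor of exon 8 was assembled in 17 of 18 libraries, all but round spermatid RNP replicate 3, and together with the annotated acceptor in 16. It held more than 50% of the Spo11 FPKM in 7 of 9 polysome libraries, with a median share of 61.6%, and in 4 of 9 RNP libraries, with a median of 48.5%. In elongating spermatids its share was 63.6, 57.3 and 100% in polysomes, against 66.1, 27.0 and 53.9% in RNPs, with overlap (exact permutation p = 0.3). In pachytene spermatocytes it was 58.4, 21.3 and 70.7% in polysomes, against 51.8, 25.1 and 63.4% in RNPs, also with overlap (exact permutation p = 0.8). In round spermatids it was 61.6, 45.2 and 66.9% in polysomes, against 20.9, 48.5 and 0% in RNPs, and the ranges met because of the libraries numbered 2 (exact permutation p = 0.2). The shifted acceptor, which the annotation lacks, was singled out after its values were seen, as were the short pieces and unannotated ends of the other genes. How the exon 2 and exon 8 choices were joined on one transcript was set by the assembler, since the exons lie farther apart than a short read reaches.

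**Figure D2:**
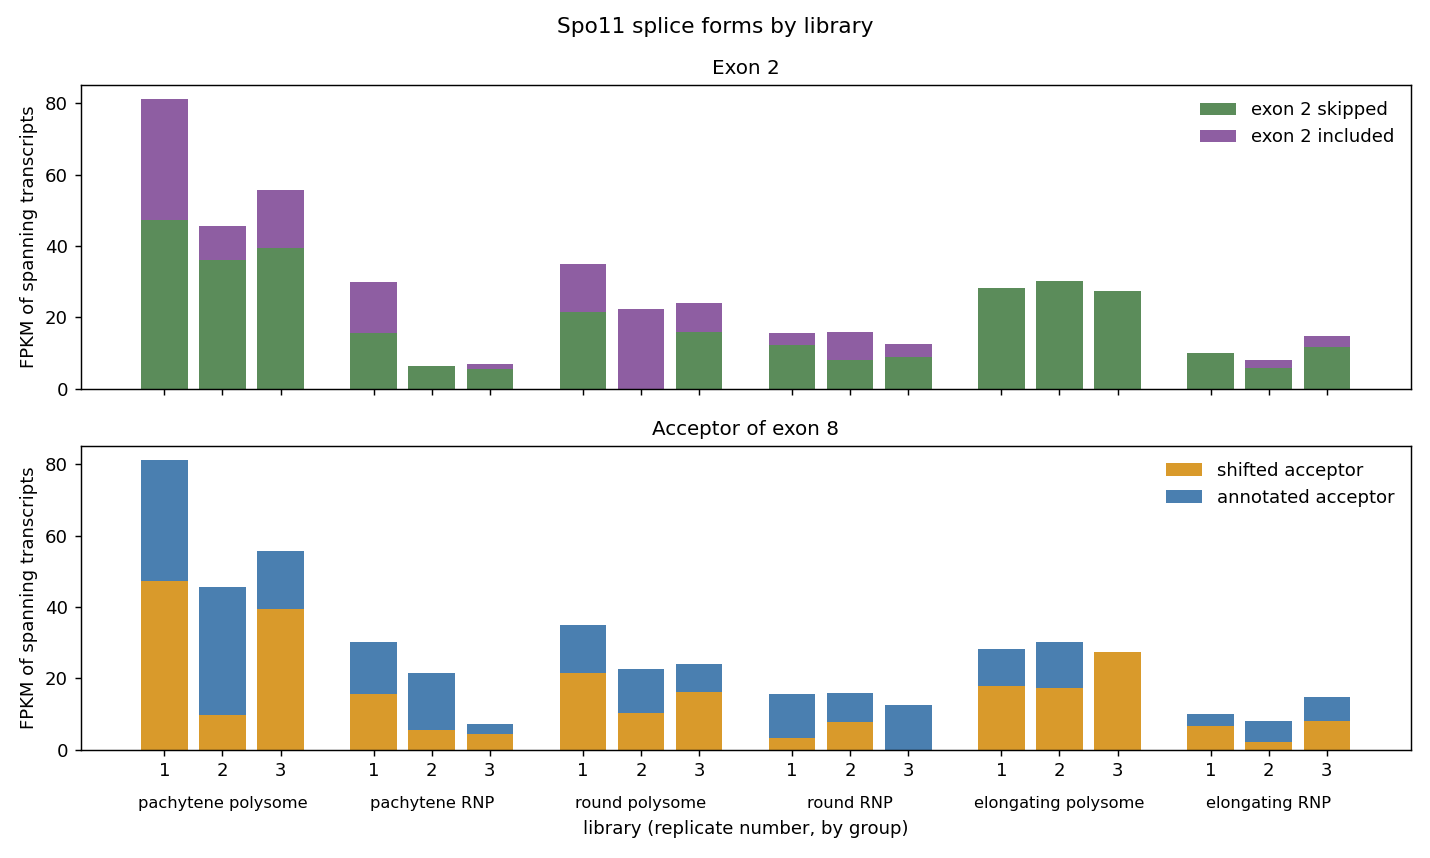
FPKM of assembled Spo11 transcripts (vertical axis, linear) that skip or include exon 2 (upper panel) and that use the shifted or the annotated acceptor of exon 8 (lower panel), 1 bar a library with its replicate number. Exon 2 is absent from the 3 elongating polysome bars, while the shifted acceptor is present in 17 of the 18 bars.

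The strand exchange gene Dmc1 (chr15:79391930-79435529, minus strand) varied widely between replicates. In pachytene spermatocytes it had 6.22, 39.3 and 86.5 FPKM in polysomes, against 2.70, 8.51 and 2.49 FPKM in RNPs. In round spermatids it had 10.7, 101.4 and 29.1 FPKM in polysomes, against 10.9, 22.3 and 52.1 FPKM in RNPs. In elongating spermatids it had 7.75, 16.3 and 6.38 FPKM in polysomes, against 3.97, 2.98 and 5.08 FPKM in RNPs. Only in elongating spermatids did the fractions not overlap.

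The highest Dmc1 value of all was that of round polysome replicate 2, one of the libraries that went against their label. The polysome minus RNP difference of Dmc1 was 2.57 in pachytene spermatocytes (SE 0.88, limma adjusted p = 0.0807) and 1.35 averaged over the cell types (SE 0.51, limma adjusted p = 0.0530), and neither was called. Without both round libraries numbered 2 the first was called (limma adjusted p = 0.0455), as were 17.6% of all genes. The second was not called there (1.07, limma adjusted p = 0.113). The length-weighted difference averaged over the cell types was 1.5 and was called (limma adjusted p = 0.0152), but not after median-ratio scaling. Without that scaling, length weighting called 57.3% of all genes in this comparison, with a median difference of 0.91.

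Dmc1 mRNA was assembled with the whole annotated chain of introns (Dmc1-201) in 6 polysome and 5 RNP libraries, and the form Dmc1-202, which lacks 2 inner exons, in none. In the 3 elongating spermatid RNP libraries the spliced transcript stopped 200, 184 and 181 bases past the stop codon, whereas in the 14 other libraries that reached the stop codon it ran 876 to 1081 bases past it. In these same 3 libraries a separate unspliced piece of 669, 399 and 711 bases followed after a gap of 79, 90 and 56 bases, so reads from the far end were there. An annotated miRNA, AC117806.1, overlaps Dmc1 on the same strand over 126 bases, and its reads cannot be told apart from those of Dmc1.

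Mnd1 (chr3:83891856-83959708, minus strand) and Psmc3ip encode MND1 and HOP2, the pair that works with DMC1. The mean level of Mnd1 was highest in round spermatid polysomes. It had 3.60, 10.5 and 8.87 FPKM in pachytene polysomes, 17.7, 20.6 and 10.9 FPKM in round polysomes and 1.58, 0 and 0.94 FPKM in elongating polysomes. In RNPs the values were 6.05, 3.53 and 0 FPKM in pachytene spermatocytes, 4.99, 5.76 and 2.54 FPKM in round spermatids and 1.49, 0 and 1.24 FPKM in elongating spermatids. A 0 means that no spliced transcript of the gene was assembled. In round polysome replicates 1 and 3, pieces of 224 and 317 bases held 12.9 and 9.19 FPKM of the Mnd1 sum. The length-weighted values of Mnd1 were 6.67, 19.0 and 7.22 FPKM in round polysomes. They overlapped those of pachytene polysomes, at 2.87, 10.1 and 8.70 FPKM. The 19.0 FPKM was that of replicate 2, a library that went against its label.

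Mnd1 fell in polysomes of elongating relative to round spermatids by 3.30 on the log2 scale (SE 0.70, limma adjusted p = 0.0440), the only one of the 8 genes called there, where 0.573% of all genes were called. Every elongating polysome library was below every round and every pachytene one. The call did not hold without both round libraries numbered 2 (-3.12, limma adjusted p = 0.140), with length-weighted values (-2.61, limma adjusted p = 0.0775), with median-ratio scaling (-3.04, limma adjusted p = 0.0813), or when any of 5 of the 6 libraries was left out (limma adjusted p up to 0.157), the exception being round polysome replicate 1. Elongating over pachytene polysomes gave -2.23 for Mnd1 (SE 0.70, limma adjusted p = 0.0673). The polysome minus RNP difference of Mnd1, averaged over the cell types, was 0.99 (SE 0.40, limma adjusted p = 0.0705). With length-weighted values it was 1.12 and called (limma adjusted p = 0.0201). There 57.3% of all genes were called and the median gene differed by 0.91. The complete Mnd1-001 chain was assembled in 4 polysome libraries and 1 RNP library, none of them from elongating spermatids.

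Psmc3ip (chr11:100953137-100956750, minus strand), the gene of HOP2, had the highest level of the 8 genes. Pachytene spermatocytes had 559.8, 471.9 and 419.8 FPKM in polysomes, against 351.0, 31.5 and 110.7 FPKM in RNPs. Round spermatids had 346.0, 47.9 and 303.1 FPKM in polysomes, against 396.7, 65.0 and 241.8 FPKM in RNPs. Elongating spermatids had 827.5, 661.1 and 544.7 FPKM in polysomes, against 61.5, 244.0 and 215.0 FPKM in RNPs. The fractions were apart in pachytene spermatocytes and elongating spermatids and overlapped in round spermatids, where both libraries numbered 2 had the lowest values.

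Much of the summed Psmc3ip value came from a piece of its first 2 exons, found in 16 of 18 libraries, that held 17.2 to 79.9% of the sum. It was 123 to 294 bases long, and a short transcript makes FPKM less certain. The length-weighted level was 99.2 to 135 in pachytene polysomes and 113.7 to 139 in elongating polysomes, still the highest of the 8 genes in each group. The polysome minus RNP difference of Psmc3ip was 2.17 in elongating spermatids (SE 0.91, limma adjusted p = 0.196) and 1.41 averaged over the cell types (SE 0.53, limma adjusted p = 0.0526). The averaged difference was called without both round libraries numbered 2 (1.46, limma adjusted p = 0.0230), as were 35.3% of all genes. The length-weighted averaged difference was 1.07 (limma adjusted p = 0.0132), where 57.3% of all genes were called and the median gene differed by 0.91. It was -0.14 for Psmc3ip after median-ratio scaling as well. The whole chain Psmc3ip-001 was assembled in pachytene RNP replicate 2 alone. Psmc3ip and Mlx overlap on opposite strands over 385 bases, and pieces were assigned by the strand given in the assembly.

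The clamp genes Msh4 (chr3:153520111-153569102, minus strand) and Msh5 (chr17:35165550-35183690, minus strand) showed how much the count of pieces matters. Msh4 had 4.40, 9.14 and 17.8 FPKM in pachytene polysomes, against 7.45, 12.1 and 0 FPKM in RNPs. Round spermatids had 7.06, 7.99 and 9.82 FPKM in polysomes, against 10.7, 4.66 and 24.2 FPKM in RNPs. Elongating spermatids had 17.7, 8.05 and 25.4 FPKM in polysomes, against 17.3, 10.2 and 7.87 FPKM in RNPs. All these ranges overlapped between fractions and, within polysomes, between stages. The averaged polysome minus RNP difference of Msh4 was 0.38 (SE 0.48, limma adjusted p = 0.549), and it was 0.75 with length-weighted values (limma adjusted p = 0.0868) and -0.37 with median-ratio scaling.

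By length-weighted value Msh4 had 7.06 ± 2.56, 4.92 ± 1.24 and 3.69 ± 0.526 FPKM in polysomes of the 3 stages, pachytene first and elongating last (SD, n = 3 each). In RNPs of the same stages it had 4.82 ± 5.64, 3.06 ± 0.784 and 1.98 ± 0.545 FPKM. Thus the sum was highest in elongating polysomes and the length-weighted value in pachytene polysomes, and the difference between them was in the number of pieces, 4 in the 3 pachytene polysome libraries and 16 in the 3 elongating ones. The complete chain Msh4-201 was assembled in 4 polysome libraries and 1 RNP library, and in no library of elongating spermatids.

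A short Msh4 transcript accounted for part of the pieces in spermatids. It began with an exon that the annotation lacks, inside the intron before the third exon from the end, and was spliced to the last 3 annotated exons. It was assembled in 6 libraries, with 0 of 6 from pachytene spermatocytes, 2 of 6 from round spermatids and 4 of 6 from elongating spermatids, at 1.47 to 3.39 FPKM and a read coverage of 2.64 to 6.69. The new exon ended at the same base in all 6, at chr3:153526566, and was 37 to 609 bases long. Its last bases and the start of the intron, in capitals, read on the minus strand as follows (chr3:153526560-153526577).
Msh4 unannotated donor: ctagttggaaagGTAAGC
The snoRNA gene SNORA17 overlaps Msh4 on the opposite strand over 125 bases. The intron starts with GT and its far end is the annotated acceptor of the next exon. At so low a coverage the transcript was not detectable in every library, so its absence from the pachytene assemblies is not a measured difference.

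Msh5 was the only one of the 8 genes whose difference averaged over the cell types was toward RNPs. Pachytene spermatocytes had 4.50, 8.55 and 7.04 FPKM in polysomes, against 8.19, 5.54 and 25.7 FPKM in RNPs. Round spermatids had 5.57, 15.5 and 7.11 FPKM in polysomes, against 9.53, 22 and 11.5 FPKM in RNPs. Elongating spermatids had 8.39, 5.24 and 4.15 FPKM in polysomes, against 19.2, 14.8 and 10.1 FPKM in RNPs. Only in elongating spermatids did the fractions not overlap.

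The averaged polysome minus RNP difference of Msh5 was -0.81 (SE 0.33, limma adjusted p = 0.0708) for the sum and 0.60 (SE 0.26, limma adjusted p = 0.0562) for the length-weighted value, so its sign turned with the treatment of pieces. In elongating spermatids the length-weighted levels were 3.98, 5.02 and 3.91 FPKM in polysomes, against 3.39, 2.48 and 3.20 FPKM in RNPs, apart in the other direction. With the sum and median-ratio scaling the gene was called lower in polysomes (-1.66, limma adjusted p = 0.0285), and with length-weighted values and the same scaling it was not called (-0.42). There were 33 spliced Msh5 pieces in RNPs and 18 in polysomes.

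One of these pieces was found only in RNP libraries. It had the 2 introns of Msh5-009, annotated without a coding sequence at the 3′ end of the gene, and it was assembled in pachytene RNP replicate 1, round RNP replicate 2 and all 3 elongating RNP libraries, at 2.78 to 12.3 FPKM, and in 0 of 9 polysome libraries. All polysome libraries but one held a complete Msh5 chain with the annotated coding sequence, Msh5-001 in 7 and Msh5-008, which has 1 more intron near its start, in 4. In RNPs Msh5-001 was assembled in 1 library and Msh5-008 in none. The separate assembly of a 3′ end and a true short transcript cannot be told apart here.

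**Figure D3:**
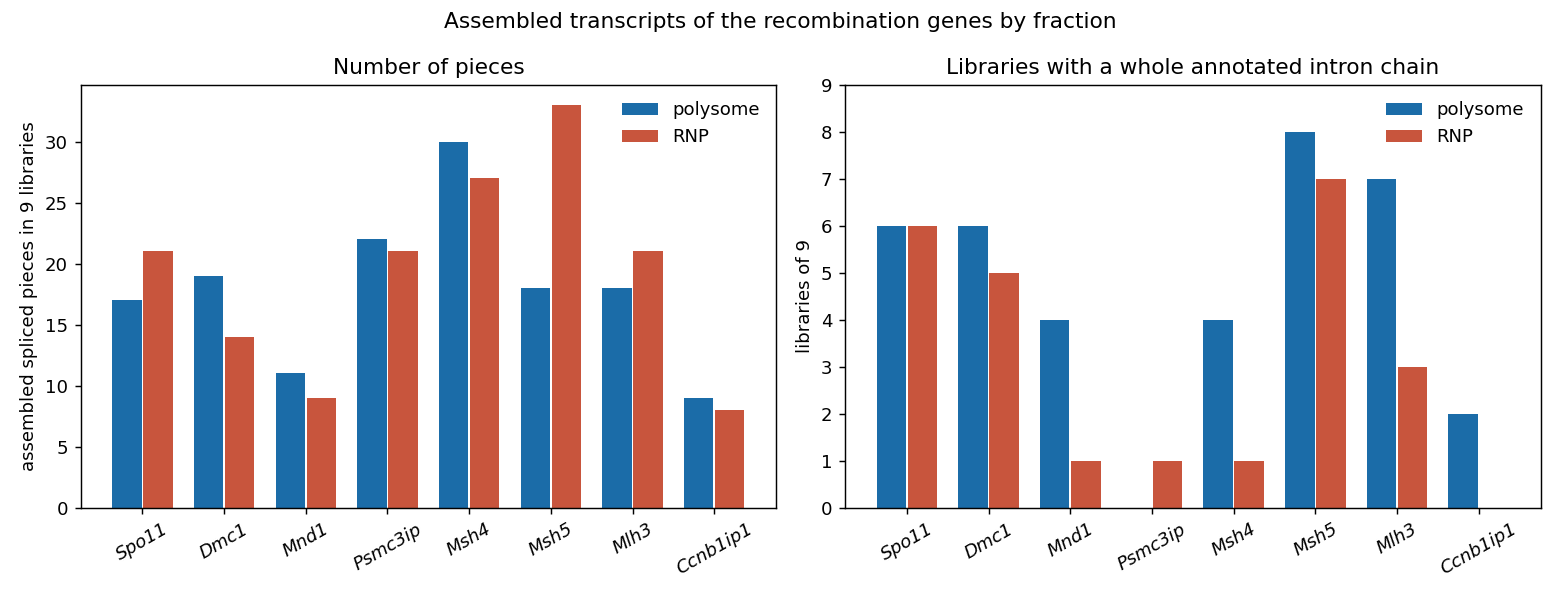
Left, number of spliced pieces assembled for each gene in the 9 polysome (blue) and 9 RNP (red) libraries; right, number of libraries of 9 in which a transcript had the whole intron chain of an annotated transcript. Msh5 had 18 pieces in polysomes and 33 in RNPs, and Mlh3 was assembled with a whole chain in 7 polysome and 3 RNP libraries.

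Mlh3 (chr12:86575479-86611541, minus strand), the endonuclease subunit that completes crossovers, had a lower level in polysomes at each later stage. Its polysome values were 16.9, 18.6 and 26.3 FPKM in pachytene spermatocytes, 12.3, 13 and 7.58 FPKM in round spermatids and 5.05, 4.8 and 4.27 FPKM in elongating spermatids, and the 3 stages did not overlap. Neither step was called. Round over pachytene polysomes gave -0.86 for Mlh3 (SE 0.67, limma adjusted p = 0.897). Elongating over round polysomes gave -1.04 (SE 0.67, limma adjusted p = 0.437). Some marker sums were lower in the same direction. In polysomes the 8 pachytene spermatocyte markers summed to 2276 to 3302, 1122 to 2516 and 701.3 to 829.3 FPKM by stage. Among them Hspa2 went the other way, at 0 in all pachytene polysome libraries and above 0 in the round and elongating ones. The 5 Leydig cell markers summed to 132.5 to 221.7, 45.2 to 64.9 and 11.7 to 29.5 FPKM. Sertoli markers were at 115.2 to 903.3, 60.4 to 1846 and 13.2 to 17.4 FPKM. The 6 peritubular cell markers rose, at 32.2 to 66.1, 73.7 to 93.8 and 124 to 173.4 FPKM. The 7 spermatogonium markers were highest in round polysomes, at 89.7 to 272.8, 136 to 569 and 80.8 to 131.4 FPKM. In RNPs the pachytene spermatocyte markers were at 169.5 to 931.5, 658.8 to 1159 and 380.3 to 419 FPKM. The part of such cells in the stage differences of Mlh3 and of the other 7 genes was not tested. In RNPs the values of Mlh3 were 7.40, 7.69 and 5.56 FPKM, then 2.31, 39.2 and 9.32 FPKM, then 8.29, 3.61 and 3.09 FPKM. The 39.2 FPKM was that of round RNP replicate 2, in which a piece of 177 bases held 35.3 FPKM, and the length-weighted value of the same library was 3.70.

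Elongating over pachytene polysomes gave -1.90 for Mlh3 (SE 0.67, limma adjusted p = 0.0968), where 5.91% of all genes and none of the 8 were called. It was called with length-weighted values (-1.89, limma adjusted p = 0.0214), also with median-ratio scaling added (-1.45, limma adjusted p = 0.0296). Leaving out both round libraries numbered 2 gave a call as well (-1.90, limma adjusted p = 0.0185). These settings called 13.8, 9.97 and 15.8% of all genes. The length-weighted polysome minus RNP difference, averaged over the cell types, was 1.53 for Mlh3 (SE 0.28, limma adjusted p = 0.000612). The sum gave 0.51 (SE 0.38, limma adjusted p = 0.309). Once scaled, the length-weighted difference was 0.57 and not called (limma adjusted p = 0.230). Unscaled length weighting called 57.3% of all genes in this comparison, with a median difference of 0.91. The complete chain of Mlh3-201 was assembled in 3 of 3 elongating polysome libraries and in 0 of 3 elongating RNP libraries.

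Ccnb1ip1 (chr14:51408924-51415403, minus strand), the gene of the ubiquitin ligase HEI10, had the lowest length-weighted level of the 8 in RNPs of round and of elongating spermatids. Pachytene spermatocytes had 5.71, 11.5 and 23.2 FPKM in polysomes, against 5.06, 5.44 and 5.49 FPKM in RNPs. Round spermatids had 3.06, 20.2 and 4.40 FPKM in polysomes, against 0, 4.0 and 1.49 FPKM in RNPs. Elongating spermatids had 1.67, 1.55 and 1.77 FPKM in polysomes, against 0, 1.52 and 1.03 FPKM in RNPs. The fractions were apart in pachytene spermatocytes and elongating spermatids, and the high round polysome value was again replicate 2.

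Ccnb1ip1 was called higher in polysomes averaged over the cell types, by 1.12 (SE 0.41, limma adjusted p = 0.0472), and the call was lost on leaving out any of 15 of the 18 libraries (limma adjusted p up to 0.0961), the exceptions being pachytene polysome replicate 1, round polysome replicate 1 and round RNP replicate 2. In polysomes it was lower in elongating spermatids than in pachytene spermatocytes by a log2 difference of -2.25 (SE 0.71, limma adjusted p = 0.0687). This was called with length-weighted values (-2.48, limma adjusted p = 0.0381) and without both round libraries numbered 2 (limma adjusted p = 0.0156). It was not called after median-ratio scaling. Length weighting called 13.8% of all genes there, and leaving out both libraries 15.8%. The whole chain of Ccnb1ip1 was assembled in pachytene polysome replicate 3 and round polysome replicate 2 only.

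**Figure D4:**
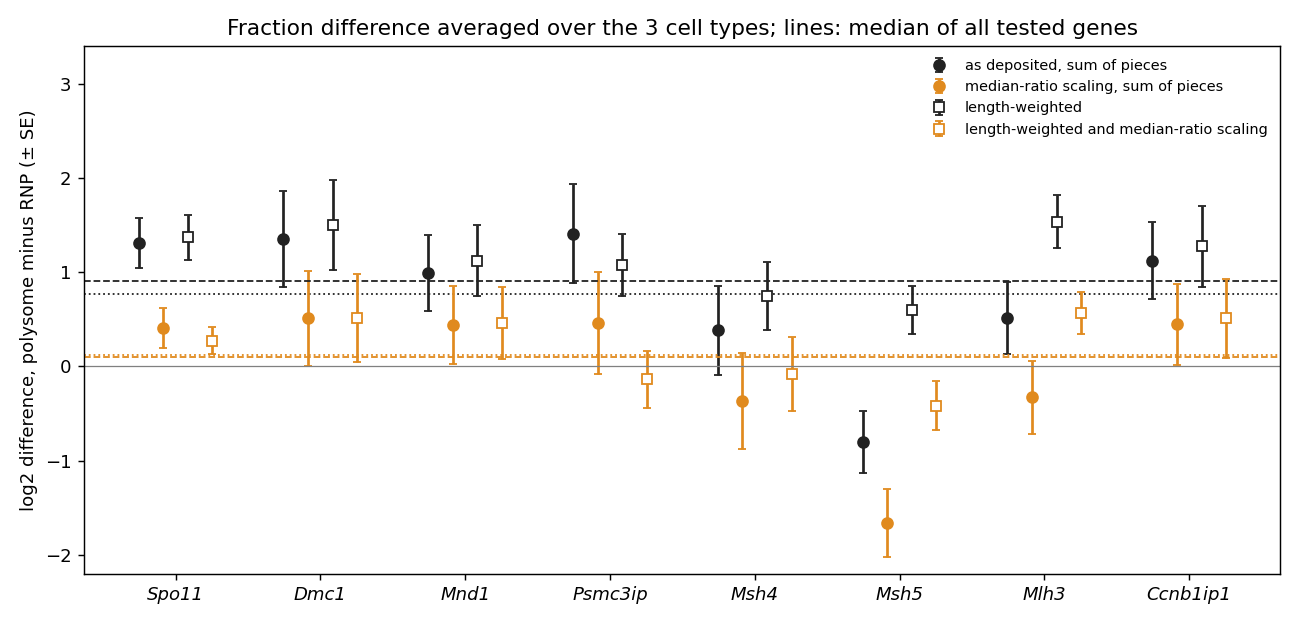
Polysome minus RNP difference on the log2 scale, averaged over the 3 cell types, for each gene with its SE, by the sum over pieces (circles) or the length-weighted value (open squares), as deposited (black) or after median-ratio scaling (orange); the horizontal lines are the medians of all tested genes. Black symbols lie between -0.81 for Msh5 and 1.53 for Mlh3, and the medians of all genes move down with scaling, to 0.12 for the sum.

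In the remaining comparisons limma called none of the 8 genes. Polysome minus RNP was called for 0.327% of all genes in round spermatids and 1.6% in elongating spermatids, and 2 of the 8 genes had an unadjusted p under 0.05 in each, as did 15% and 20.3% of all genes. Round over pachytene was called for 0% of all genes in RNPs and 0.157% in polysomes, with 1 of the 8 genes under an unadjusted 0.05 in each, beside 4.51% and 7.78% of all genes. In RNPs, elongating over round was called for 0.0818% of genes and elongating over pachytene for 0.689%, with 2 and 1 of the 8 under an unadjusted 0.05, beside 8.57% and 16.0% of all genes. The change of the fraction difference was called for 0.0136% of genes between pachytene and round spermatids and for 0.0273% between pachytene and elongating spermatids, and none of the 8 genes had an unadjusted p under 0.05 for it. A difference between stages in the fraction difference was thus called for none of the 8 genes.

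By length-weighted level in pachytene polysomes the order was Psmc3ip (115 ± 18.3 FPKM), Spo11 (26.3 ± 7.07), Mlh3 (19.8 ± 4.27), Dmc1 (15.6 ± 10.8), Ccnb1ip1 (12.7 ± 8.62), Mnd1 (7.23 ± 3.84), Msh4 (7.06 ± 2.56) and Msh5 (6.6 ± 1.73; SD, n = 3 each). Neighbours from Mlh3 downwards were within their spread of each other. Spo11 and Mlh3 were so too, but the Spo11 value is understated by the retained-intron length it is set against. In elongating polysomes it was Psmc3ip (125 ± 12.9 FPKM), Spo11 (12.7 ± 0.671), Dmc1 (6.71 ± 0.94), Mlh3 (4.53 ± 0.267), Msh5 (4.30 ± 0.625), Msh4 (3.69 ± 0.526), Ccnb1ip1 (1.16 ± 0.453) and Mnd1 (1.02 ± 1.29). There the libraries of Psmc3ip, Spo11 and Dmc1 did not overlap with those of any gene after them, and neither did those of Msh4.

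The 8 genes did not move as one across the 18 libraries. Of 28 pairs, 16 had a positive Pearson correlation of log2(FPKM + 1), from -0.75 for Spo11 and Msh5 to 0.66 for Mlh3 and Ccnb1ip1. With length-weighted values 24 pairs were positive, with a median of 0.67 and a highest value of 0.94 for Dmc1 and Msh5, and the 4 negative pairs all held Psmc3ip. The libraries share fraction, cell type, depth and the share of AC154124.1, so these correlations describe the libraries as much as the genes.

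Among 9965 genes with a mean of at least 5 FPKM, the most similar patterns were those of Cdh2 (r = 0.97) and Ranbp1 (0.96) for Spo11, Wars (0.89) and H2-Ke6 (0.88) for Dmc1, and Atxn7l3 (0.86) and Fam70a (0.85) for Mnd1. Fam170a and Fam98c (0.92 each) were the most similar to Psmc3ip, Ano1 (0.85) and Plekho2 (0.82) to Msh4, and Helz (0.80) and 9030624G23Rik (0.77) to Msh5. For Mlh3 they were the small RNA gene snoU89 (0.85) and Agpat4 (0.84), and for Ccnb1ip1 Wdr8 (0.94) and Rabep1 (0.93), over the same 18 libraries.

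Other genes of meiotic recombination, a list of 48 of which 47 were annotated and tested, were set beside the 8. Averaged over the cell types, 13 of 47 were called higher in polysomes and none lower, with a median difference of 0.71 beside 0.76 for all genes, so the list did not stand above the background of 30.6%. With median-ratio scaling, 1 of 47 was called. The 6 with the highest levels were Rpa1 of the single-strand binding complex (107 FPKM on average in polysomes and 52.9 in RNPs, difference 1.03), the nuclease scaffold Slx4 (83.4 and 17.1 FPKM, 2.08), the crossover factor Cntd1 (66.9 and 16.2 FPKM, 2.0), the kinase Cdk2 (39.8 and 10.4 FPKM, 1.5), the helicase Blm (33.0 and 15.7 FPKM, 0.99) and Sfr1, a helper of strand exchange (31.4 and 15.9 FPKM, 0.95).

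Within single cell types fewer of the 47 were called, all higher in polysomes. Cntd1 (2.15), Cdk2 (2.34) and Hsf2bp (1.39), the last of which binds BRCA2, were called in pachytene spermatocytes, Nbn (2.22), a sensor of broken ends, in round spermatids and Cntd1 (2.50) in elongating spermatids. These 3, 1 and 1 of 47 are 6.38, 2.13 and 2.13% of the list, beside 6.34, 0.327 and 1.6% of all genes. With median-ratio scaling or quantile normalization none of the 47 was called within a cell type. With length weighting 17 were called in pachytene spermatocytes, 36.2% of the list beside 33.6% of all genes. In elongating relative to pachytene polysomes 3 of 47 were called lower, Swi5 (-1.47), the partner of Sfr1, Cdk2 (-2.90) and Fignl1 (-2.53), an ATPase that takes recombinase off DNA. That is 6.38% of the list beside 5.91% of all genes. The median of the list was -0.58 there, that of the 8 genes -1.26 and that of all genes -0.24. In the other comparisons between stages none of the 47 was called, while 1 to 9 had an unadjusted p under 0.05, beside 4.51 to 16.0% of all genes.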

How the data were processed

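Per the labels, TopHat and Cufflinks on mm9 made the deposited transcript assemblies, 1 for each of 18 libraries, and the FPKM that the authors deposited in their attribute text was used here. Versions, and which libraries had single-end or paired-end reads, are not given in the sources used here. Transcripts were matched to GENCODE vM1 by strand and shared splice junctions, and of 122 introns of the 8 genes 98.4% had GT and AG ends in NCBIM37. Gene values were compared with limma 3.58.1 (R 4.3.3), two-sided, on log2(FPKM + 1), in 1 model of 6 groups. A gene counted as called at an adjusted p (Benjamini-Hochberg, all 14664 genes) under 0.05. The test was checked on simulated data with independent libraries and no shift of all genes between fractions. That check therefore says nothing on the effect of scaling or of single libraries. Folds on this scale understate the change of low genes. Named genes were all 8, their intron chains, up to 6 called genes of the recombination list a comparison, by level, and the 2 most similar genes of each. The 8 genes and all lists were chosen with earlier results of these data known. Alternatives were median-ratio and quantile scaling, a pseudocount of 0.1, other filters, a replicate block, left-out libraries, annotated chains only and length weighting. Same-numbered libraries deviated together, with a correlation over 0.1 for all 3 numbers, only between the fractions of round spermatids (0.20 to 0.66) and between round and pachytene RNPs (0.12 to 0.60).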

Additional observations from a re-analysis of the deposited data

How the results depend on the processing

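Several of the calls above depend on how libraries are scaled and how pieces are summed, and for none of these was the cause tested. In pachytene spermatocytes the number of the 8 genes called between polysomes and RNPs, 1 as reported, was 0 with median-ratio scaling, quantile normalization, annotated chains only, only the libraries compared, or length weighting with median-ratio scaling, 2 with an adjusted p under 0.1, without both round libraries numbered 2 or with length weighting that counts single-exon pieces, 3 with length weighting, and 0 to 1 when 1 library was left out. Averaged over the cell types it was 2 as reported, 0 with quantile normalization, annotated chains only or length weighting with scaling, 1 with median-ratio scaling (Msh5, lower) or no filter, 4 with a filter at an FPKM of 5, 6 with an adjusted p under 0.1 or length weighting, 5 with single-exon pieces as well, and 1 to 3 when 1 library was left out. In elongating spermatids it was 0, and 1 (Spo11) with only the libraries compared. Elongating over round in polysomes gave 1 gene, Mnd1, and 0 with median-ratio scaling, a pseudocount of 0.1, a filter at 5, without both round libraries numbered 2, annotated chains only, each of the 3 length weightings or only the libraries compared, and 0 to 1 when 1 library was left out. Elongating over pachytene in polysomes gave 0, but 3 with an adjusted p under 0.1, without both round libraries numbered 2, with length weighting or with only the libraries compared, 2 with single-exon pieces as well and 1 with length weighting and scaling. The replicate block, which joins libraries of the same number, gave 2 (Spo11, Dmc1) in pachytene spermatocytes, 4 averaged over the cell types (Spo11, Dmc1, Psmc3ip, Ccnb1ip1) and 2 (Mnd1, Ccnb1ip1) for elongating over pachytene polysomes, and it changed no other count of the 8. Whether libraries of the same number came from the same purification is not stated in the labels. Signs that turned were, for the averaged fraction difference, Psmc3ip (-0.14, length weighting with scaling), Msh4 (-0.37 with median ratios, -0.35 with quantiles, -0.083 with length weighting and scaling), Mlh3 (-0.33 with median ratios, -0.24 with quantiles) and Msh5 (0.41 with annotated chains only, 0.60 with length weighting, 0.57 with single-exon pieces as well), and with annotated chains only Dmc1 in pachytene spermatocytes (-0.74) and in elongating over pachytene polysomes (1.49). Of 463 refitted fold changes 351 kept direction and side of the threshold, and no sign turned when 1 library was left out. Genes tested numbered 14664 as reported, 10402 with annotated chains only, 13055 with length weighting and 14357 with single-exon pieces as well. Over all genes, the averaged fraction difference was called for 4415 higher and 71 lower as reported, for 147 and 114 with median-ratio scaling, 100 and 83 with quantiles, 789 and 87 with annotated chains only, 7411 and 64 with length weighting, 105 and 143 with length weighting and scaling, and 7810 and 109 with single-exon pieces as well. In pachytene spermatocytes 930 genes were called as reported, 27 with median-ratio scaling, 21 with quantiles, 1767 with the replicate block, 2584 without both round libraries numbered 2, 86 with annotated chains only, 4381 with length weighting and 141 with only the libraries compared. The settings other than leaving out 1 library gave 39 to 2333 genes for the fraction difference in elongating spermatids (234 as reported), 7 to 101 in round spermatids (48), 403 to 2317 for elongating over pachytene polysomes (866) and 14 to 633 for elongating over round polysomes (84). With Spo11 exon 2 counted only where joined to exon 1, the α share of elongating minus pachytene RNPs was -1.37 percentage points, against 7.9 with every exon 2 transcript. This and the 3 length weightings were chosen after seeing the data. The files give no read counts, so the precision of low genes such as Ccnb1ip1 and Mnd1 is known only from 3 libraries a group.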
